A study of Mus musculus with 2 samples.

Results

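The genes described here are 46 genes of G2 phase and mitosis, taken by symbol from a named list that was drawn up with earlier results of these data known. The deposited tables list 33670 gene symbols, and 8817 of these reached 5 CPM (UMIs scaled to a common library total) in 1 or both libraries. All 46 mitotic and G2 genes reached that level. The data are single-cell RNA sequencing of embryoid bodies, which are floating clusters of differentiating stem cells, here grown from the male mouse embryonic stem cell line J1. One group received DMSO, the solvent control, and the other received dTAG13, each for 2 days. dTAG13 is a small molecule that brings a protein carrying a degradation tag to a ubiquitin ligase, so that the protein is destroyed. Which protein carries it is not said in the labels, while the series title names Tex10. Each group is 1 library, so no difference has a replicate check, no test was possible and every interval below is a 95% interval that covers counting error only. The labels do not give the number of embryoid bodies in each library, and cells without the tag that received dTAG13 were not analysed here.

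Cells that have copied their DNA enter mitosis when the kinase Cdk1 is activated by B-type cyclins. They then condense their chromosomes, build a spindle, check that each kinetochore is attached, and degrade cyclin through the anaphase-promoting complex before dividing. Transcripts of these genes rise together in G2, under the MuvB complex with B-Myb and FoxM1, through a promoter element called CHR and often CCAAT boxes bound by NF-Y. Mouse embryonic stem cells cycle fast with short gap phases, so mitotic transcripts are abundant in them. The tumour suppressor p53 is known to lower most of this programme through p21 and the DREAM complex. Gtse1 and Psrc1 are known exceptions, having been described as genes that p53 induces.

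Kept cells had 500 genes or more and no more than 10% mitochondrial UMIs. The DMSO library held 17878 cells and 117189816 UMIs, and the dTAG13 library 11588 cells and 91808969 UMIs. Median depth per cell was 6014 UMIs with DMSO and 7072.5 with dTAG13, and 63 barcode sequences occurred among the kept cells of both libraries. All 10 of 10 pluripotency markers were measured, with a summed level of 10179 CPM (DMSO) and 9038 CPM (dTAG13). Pou5f1, the defining one, stood at 612 and 516 CPM. None of 10 endoderm and mesoderm markers and none of 8 feeder fibroblast markers reached 5 CPM in either library, with summed levels of 1.25 and 2.80 CPM and of 1.01 and 0.817 CPM. The cells thus carried stem cell markers, and markers of the endoderm and mesoderm that embryoid bodies can form were near 0. A list of 6 neural markers had 2 at 5 CPM or more with DMSO and 3 with dTAG13, and summed to 65.4 and 104 CPM, and its part in the results was not tested. The keratin and trophoblast list summed to 35.0 CPM with DMSO and 102 CPM with dTAG13, and its part in the results below was measured by leaving out cells with keratin UMIs. Tex10 itself stood at 81.3 (DMSO) and 64.7 CPM (dTAG13).

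The summed level of the mitotic and G2 genes was nearly equal in the libraries. It was 9954 CPM in the DMSO and 10011 CPM in the dTAG13 library, and their ratio (dTAG13 to DMSO) was 1.006 (1.003 to 1.008). Within that sum the genes went in different directions. Hmgb2, a DNA-bending chromatin protein and the most abundant of the 46, supplied 30.1% of the summed UMIs with DMSO and 24.2% with dTAG13. Without it, the sum was 6960 and 7587 CPM, a ratio of 1.09. Gene by gene, 33 of 46 had a ratio above 1 and 13 below. Under a median-of-ratios scaling, which lowers all log2 ratios by 0.07, the split was 25 above and 21 below. In the CPM values, 34 lay within a 1.25-fold change. The counting interval lay above 1 for 27 genes, below 1 for 10 and held 1 for 9. The median log2 ratio was 0.09, with quartiles of -0.02 and 0.29, and the median over all 8817 measured genes was also 0.09. Most measured genes thus also had a ratio above 1, and the counts above and below 1 are not read as a trait of the 46.

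At least 1.5-fold higher with dTAG13 were 5 of 46 genes (10.9%), where 14.2% of all measured genes were. At least 1.5-fold lower was 1 gene (2.17%), where 5.40% of all measured genes were. These shares rest on 5 genes and 1 gene, so neither is read as a difference from all measured genes. Genes that departed from the rest were taken as those at least 1.5-fold from the median ratio of the 46, which was 1.06. There were 5: Psrc1, Gtse1, Ckap2 and Hmmr on the higher side and Anp32e on the lower. Cdc20 passed 1.5-fold against DMSO but not against the other mitotic genes.

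**Figure D1:**
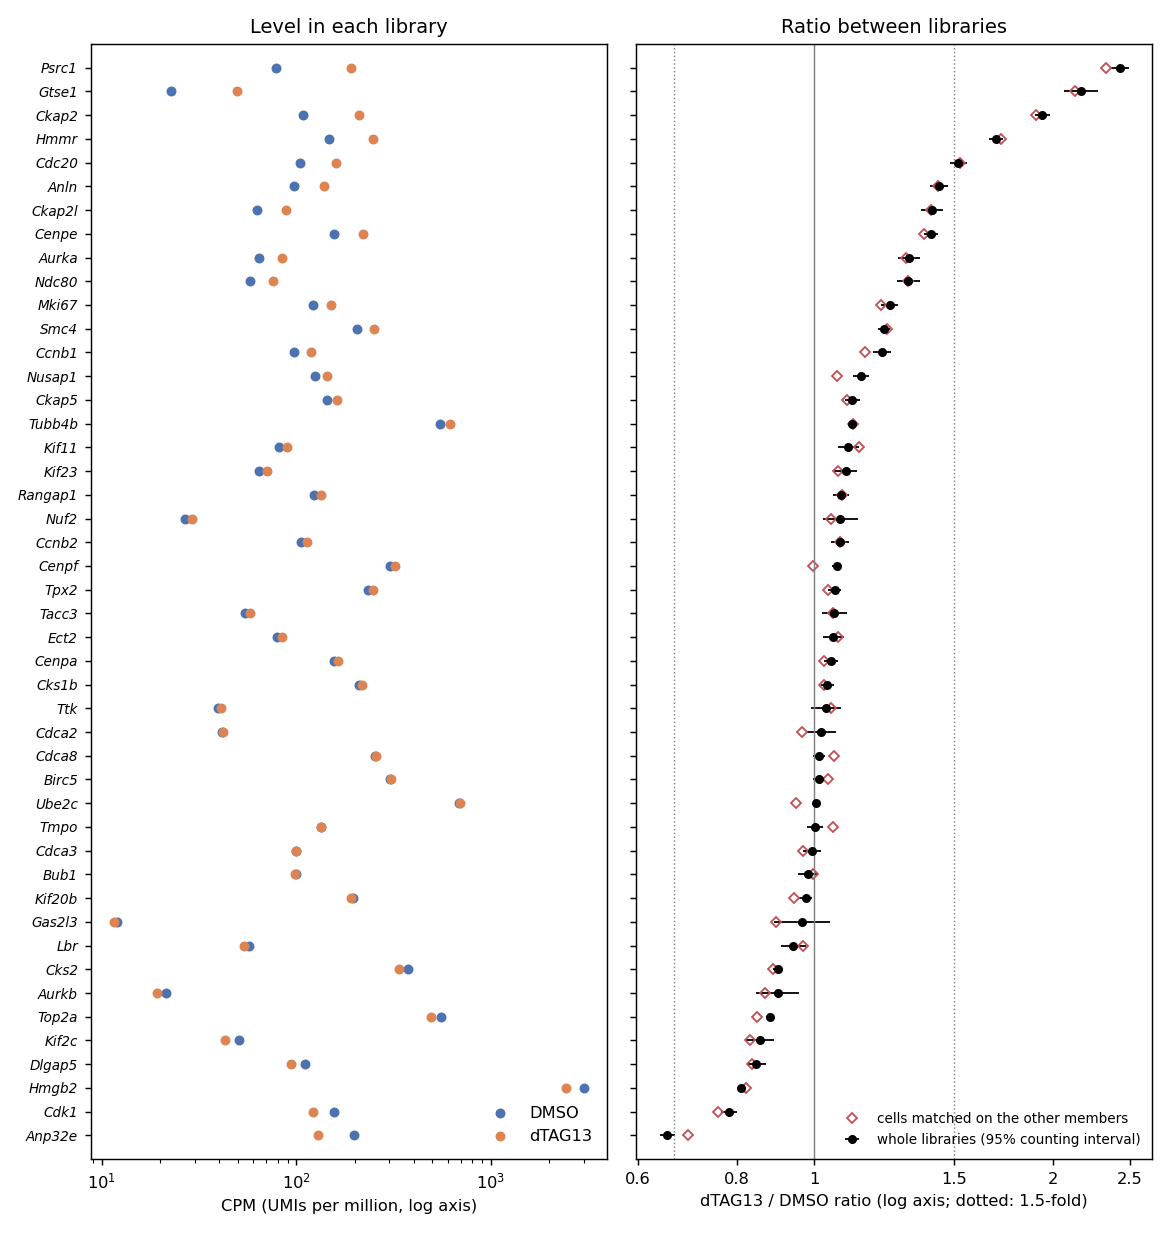
Level of each of the 46 genes in CPM on a log axis, 1 point per library (left), and the ratio of dTAG13 to DMSO on a log axis (right) for whole libraries, with 95% counting intervals, and for cells matched on the other genes (open diamonds). Psrc1 has the largest ratio, 2.43, and Anp32e the smallest, 0.653, and 34 of the 46 genes lie within a 1.25-fold change.

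Psrc1 (ENSMUSG00000068744), a microtubule-binding protein that loads the spindle depolymerase Kif2a, had 9161 UMIs with DMSO and 17449 with dTAG13. These counts are levels of 78.2 CPM (76.6 to 79.8) and 190.1 CPM (187 to 193), a ratio of 2.43 (2.37 to 2.49). No other gene of the 46 had a ratio this large. Gtse1 (ENSMUSG00000022385), which holds microtubules stable in G2 and mitosis and carries p53 out of the nucleus, had 2669 and 4536 UMIs. Its level was 22.8 CPM in the DMSO and 49.4 CPM in the dTAG13 library, a ratio of 2.17 (2.07 to 2.28). Ckap2 (ENSMUSG00000037725), a spindle protein that promotes microtubule nucleation, had 12705 and 19303 UMIs. The levels were 108 and 210.3 CPM, a ratio of 1.94 (1.90 to 1.98). Hmmr (ENSMUSG00000020330), a spindle pole protein that anchors Tpx2 and also binds hyaluronan, had 17174 and 22825 UMIs. The levels were 147 and 249 CPM, a ratio of 1.70 (1.66 to 1.73). All 4 genes act on spindle microtubules. On the other side, Anp32e (ENSMUSG00000015749), a chaperone that removes the histone variant H2A.Z from chromatin, had 23124 and 11830 UMIs. Its level fell from 197 CPM to 129 CPM, a ratio of 0.653 (0.639 to 0.668). For each of these 5 genes the libraries' counting intervals were far apart.

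The sequence before the start site of these genes is where the shared G2 elements lie. RefSeq promoter windows (build GRCm38.p6, 250 bases upstream of the start) were matched for 41 of the 46 genes, and Cdca2, Aurkb, Tpx2, Smc4 and Dlgap5 had none in the table. The letters searched, on both strands, were TTTGAA or TTCGAA for CHR and CCAAT for the NF-Y box. The pair can share a letter where they abut, which happened in 0 of the 41 windows and in 41 of all 32851. For each of the 41 genes 1 window was used, that nearest the annotated gene start. The 32851 windows were taken without that choice, so the shares below differ in how windows were picked. A CHR match occurred in 19 of 41 windows (46.3%) and in 17.1% of 32851 RefSeq windows of the same length. CCAAT occurred in 32 of 41 (78.0%) against 33.8% of all windows, and 2 or more CCAAT in 25 of 41 (61.0%) against 10.1%. Both motifs occurred in 18 of 41 windows (43.9%) against 6.02%. The p53 half-site consensus matched in 3 of 41 windows (7.32%), those of Ckap2, Birc5 and Kif23, against 7.13% of all windows, and the full p53 site in 0 of 41 against 0.0639%. A match is a description of letters and no evidence of binding. The full p53 site is so rare in such windows that 0 of 41 says nothing about these genes. Sequence outside the 250 bases was not searched. The windows of the 5 departing genes are shown first, then Cdc20, then Cdk1 and Ccnb2, a lower and a nearly level gene of the same programme. Each reads 5′ to 3′ toward the gene's start, with capitals for a CHR or CCAAT match on either strand.
Psrc1: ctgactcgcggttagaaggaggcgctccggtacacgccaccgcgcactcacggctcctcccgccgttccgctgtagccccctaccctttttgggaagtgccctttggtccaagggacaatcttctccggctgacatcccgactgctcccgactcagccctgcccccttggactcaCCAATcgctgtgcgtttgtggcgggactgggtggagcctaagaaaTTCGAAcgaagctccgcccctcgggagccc
Gtse1: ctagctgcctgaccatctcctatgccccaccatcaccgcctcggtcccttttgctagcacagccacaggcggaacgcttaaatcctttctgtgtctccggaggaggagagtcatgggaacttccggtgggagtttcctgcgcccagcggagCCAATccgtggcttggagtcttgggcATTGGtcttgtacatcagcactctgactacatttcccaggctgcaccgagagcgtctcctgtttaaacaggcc
Ckap2: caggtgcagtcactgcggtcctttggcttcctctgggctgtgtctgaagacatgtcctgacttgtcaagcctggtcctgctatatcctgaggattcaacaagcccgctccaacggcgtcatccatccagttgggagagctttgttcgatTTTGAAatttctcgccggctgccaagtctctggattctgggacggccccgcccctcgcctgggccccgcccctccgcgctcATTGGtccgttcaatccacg
Hmmr: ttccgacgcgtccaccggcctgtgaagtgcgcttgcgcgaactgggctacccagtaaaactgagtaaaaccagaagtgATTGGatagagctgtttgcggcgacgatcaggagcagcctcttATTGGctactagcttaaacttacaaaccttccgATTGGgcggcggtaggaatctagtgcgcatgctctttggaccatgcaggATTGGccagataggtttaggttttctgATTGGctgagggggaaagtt
Cdc20: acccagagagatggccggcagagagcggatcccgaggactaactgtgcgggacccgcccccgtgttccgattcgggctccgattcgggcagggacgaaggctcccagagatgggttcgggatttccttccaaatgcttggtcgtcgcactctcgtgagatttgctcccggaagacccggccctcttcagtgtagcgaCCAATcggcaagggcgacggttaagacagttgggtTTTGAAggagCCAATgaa
Anp32e: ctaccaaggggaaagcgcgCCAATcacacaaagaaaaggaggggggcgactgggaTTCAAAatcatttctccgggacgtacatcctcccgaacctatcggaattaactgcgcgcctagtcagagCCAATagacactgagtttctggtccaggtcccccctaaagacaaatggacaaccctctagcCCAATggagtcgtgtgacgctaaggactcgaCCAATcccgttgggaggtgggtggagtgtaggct
Cdk1: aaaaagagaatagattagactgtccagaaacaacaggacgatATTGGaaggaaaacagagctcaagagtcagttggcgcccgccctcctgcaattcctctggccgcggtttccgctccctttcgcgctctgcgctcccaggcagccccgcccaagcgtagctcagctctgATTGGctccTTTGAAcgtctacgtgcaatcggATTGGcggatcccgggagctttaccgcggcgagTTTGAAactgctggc
Ccnb2: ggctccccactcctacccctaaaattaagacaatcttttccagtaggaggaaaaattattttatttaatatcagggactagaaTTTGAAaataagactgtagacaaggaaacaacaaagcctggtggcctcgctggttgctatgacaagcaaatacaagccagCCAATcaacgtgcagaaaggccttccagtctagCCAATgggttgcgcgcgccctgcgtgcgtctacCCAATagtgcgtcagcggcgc
The windows lie at chr3:108383588-108383837 on the plus strand for Psrc1 and chr15:85859457-85859706 on the plus strand for Gtse1. Ckap2 lies at chr8:22185820-22186069 and Hmmr at chr11:40733438-40733687, both on the minus strand. Cdc20 lies at chr4:118437344-118437593 on the minus strand and Anp32e at chr3:95929007-95929256 on the plus strand. Cdk1 lies at chr10:69352913-69353162 and Ccnb2 at chr9:70421555-70421804, both on the minus strand. In these letters the Psrc1 window holds 1 CHR and 1 CCAAT match, Gtse1 no CHR and 2 CCAAT, Ckap2 1 of each, and Hmmr no CHR and 5 CCAAT. Anp32e holds 1 CHR and 4 CCAAT, Cdc20 1 and 2, Cdk1 2 and 3, and Ccnb2 1 and 3. Windows with and without CHR both occurred among the genes that were higher.

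In the values by role below, the DMSO level precedes the dTAG13 level, and the ratio of dTAG13 to DMSO follows in brackets. The genes that drive entry into mitosis were split. Cdk1, the kinase itself, had 18268 UMIs with DMSO and 11173 with dTAG13, levels of 156 and 122 CPM and a ratio of 0.781 (0.762 to 0.799). Of its cyclin partners, Ccnb1 was higher, at 97.6 and 119 CPM (ratio 1.22), and Ccnb2 was nearly level, at 105 and 114 CPM (1.08). Cks1b and Cks2 are small adaptor subunits of the kinase. Cks1b stood at 209 and 217 CPM (1.04), while Cks2 stood at 375 and 338 CPM (0.900). The exit machinery had 1 gene that moved. Cdc20, which activates the anaphase-promoting complex, had 12289 UMIs with DMSO and 14640 with dTAG13, levels of 105 and 159 CPM and a ratio of 1.52 (1.48 to 1.56), just inside the 1.5-fold limit. Anln, at 1.44, lay just outside it. Under a median-of-ratios scaling the ratio of Cdc20 was 1.44, below that limit. Ube2c, the ubiquitin-conjugating enzyme of the same complex and 1 of the 3 most abundant of the 46 genes, stood at 685 and 689 CPM (1.01). Cdca3, a trigger of mitotic entry, stood at 99.9 and 99.3 CPM (0.994).

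The spindle assembly genes include Psrc1, Gtse1, Ckap2 and Hmmr. Of these 12 genes, 11 had a ratio above 1 under either scaling and the median ratio was 1.23. Most measured genes also had a CPM ratio above 1. At least 1.5-fold higher were 4 (33.3%), beside 14.2% of all measured genes. The roles belong to a list drawn up with earlier results of these data known, and spindle kinesins such as Kif11 are grouped elsewhere. This share depends on that grouping. Aurka, the kinase that matures centrosomes, stood at 64.2 and 84.6 CPM (1.32), while its activator Tpx2 stood at 232 and 247 CPM (1.06). Ckap2l, a relative of Ckap2 at the spindle pole, stood at 62.6 and 88.2 CPM (1.41). Tacc3 and Ckap5 form a complex on spindle microtubules, and stood at 54.4 and 57.7 CPM (1.06) and at 144 and 161 CPM (1.12). Nusap1, a microtubule bundler, stood at 125 and 143 CPM (1.15), and Tubb4b, a beta tubulin, at 549.9 and 614 CPM (1.12). Dlgap5, which stabilises kinetochore fibres, was the 1 spindle gene below 1, at 111 and 94.0 CPM (0.845).

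All 5 kinetochore and centromere genes had a ratio above 1, as most measured genes did, with a median of 1.08. Under the median-of-ratios scaling 4 of 5 did. Cenpe, the kinesin that carries chromosomes to the spindle equator, stood at 156 and 219 CPM (1.41). Ndc80 and Nuf2 are partners in 1 complex that grips microtubules, and stood at 57.8 and 76.0 CPM (1.31) and at 26.9 and 29.0 CPM (1.08). Cenpf stood at 301 and 322 CPM (1.07) and Cenpa, the centromeric histone, at 156 and 164 CPM (1.05). The chromosomal passenger complex, which corrects wrong attachments, was nearly level: Birc5 stood at 302 and 306 CPM (1.01), Cdca8 at 253 and 256 CPM (1.01) and its kinase Aurkb, 1 of the 3 least abundant of the 46, at 21.2 and 19.1 CPM (0.900). The spindle checkpoint kinases were level too, with Bub1 at 100.02 and 98.2 CPM (0.982) and Ttk at 39.3 and 40.7 CPM (1.04).

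Of the 4 kinesin genes listed by that name, none moved by 1.25-fold. Kif11, which pushes spindle poles apart, stood at 81.2 and 89.7 CPM (1.10), and Kif23, of the central spindle, at 64.2 and 70.4 CPM (1.10). Kif20b stood at 195 and 190.1 CPM (0.976) and the depolymerase Kif2c at 50.5 and 43.2 CPM (0.854). Of the cytokinesis genes, Anln, a scaffold of the contractile ring, stood at 96.7 and 139 CPM (1.44). Ect2, the activator of RhoA at the cell equator, stood at 79.9 and 84.4 CPM (1.06). Gas2l3, which links actin and microtubules at the midbody, was the least abundant of the 46, at 11.96 and 11.56 CPM (0.966), with a counting interval that held 1.

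Genes of chromosome structure had a median ratio of 0.948. Hmgb2 had 350923 UMIs with DMSO and 222526 with dTAG13, levels of 2994 and 2424 CPM and a ratio of 0.809. Top2a, the enzyme that untangles sister chromatids, stood at 557 and 490.0 CPM (0.880). Smc4, a core condensin subunit, stood at 205 and 251 CPM (1.22), and Mki67, which coats mitotic chromosomes, at 122 and 151 CPM (1.24), so condensation genes lay on both sides of 1. Cdca2, which brings a phosphatase to chromatin, stood at 41.3 and 42.1 CPM (1.02). The nuclear envelope genes were nearly level, with Tmpo at 133 and 133 CPM (1.002), Lbr at 57.0 and 53.7 CPM (0.942) and Rangap1, of the transport system, at 123 and 133 CPM (1.08).

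Nearly equal library sums hid a different spread among cells. Each cell was thinned at random to 3900 UMIs, which left out 1755 shallower cells of the DMSO library and 773 of the dTAG13 library and kept 16123 and 10815. The median cell then held 37 UMIs of the 46 genes in both libraries. The 10th to 90th percentiles ran from 25 to 53 UMIs with DMSO and from 12 to 62 with dTAG13. The variance divided by the mean was 3.44 with DMSO and 9.52 with dTAG13. Cells at both ends were more frequent with dTAG13. At or under 22 UMIs, the 5th percentile of DMSO cells, were 1002 DMSO cells, 6.21% (5.85 to 6.60), and 2642 dTAG13 cells, 24.4% (23.6 to 25.3). Within 2 UMIs of that limit lay 1092 DMSO and 691 dTAG13 cells, so this class is a range set by a chosen limit. Whether it holds a distinct kind of cell was not tested. At or above 59 UMIs were 847 DMSO cells, 5.25% (4.91 to 5.61), and 1503 dTAG13 cells, 13.9% (13.3 to 14.6). Fewer than 10 UMIs occurred in 12 DMSO cells, 0.0744% (0.0385 to 0.130), and in 707 dTAG13 cells, 6.54% (6.08 to 7.02). Without Hmgb2 the 10th to 90th percentiles ran from 15 to 40 UMIs with DMSO and from 9 to 50 with dTAG13.

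**Figure D2:**
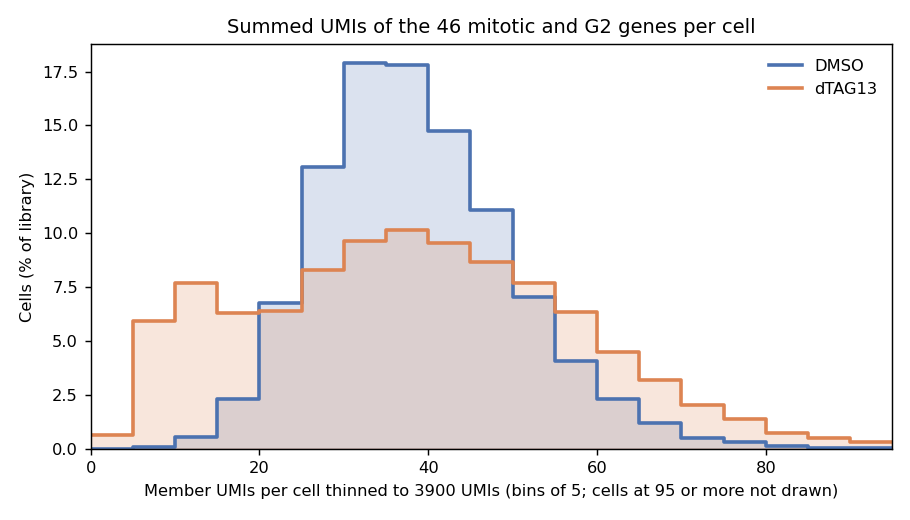
Percent of thinned cells (vertical axis) by UMIs of the 46 genes per cell at 3900 UMIs in all (horizontal axis), for the DMSO library (16123 cells) and the dTAG13 library (10815 cells). The DMSO cells form 1 peak near the median of 37 UMIs, while the dTAG13 cells spread wider on both sides and have a second, lower peak between 10 and 14 UMIs.

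Several measures moved with the low class. With dTAG13 the low cells had a median of 5638.5 UMIs in all before thinning against 7836 in the other cells, and with DMSO 5240 against 6338. Summed UMIs of 44 S-phase genes had a median of 10 in low dTAG13 cells and 17 in the other dTAG13 cells, and of 21 and 20 with DMSO. Low dTAG13 cells therefore held fewer S-phase transcripts than the other cells of their library, and low DMSO cells did not. Summed UMIs of p53 targets were 10 and 9 with dTAG13 and 3 and 2 with DMSO, and summed pluripotency marker UMIs 36 and 35 with dTAG13 and 41 and 39 with DMSO. The mitochondrial share was 1.80% and 2.03% with dTAG13 and 2.52% and 2.47% with DMSO. A keratin (Krt8 or Krt18) UMI occurred in 14.8% of low and 8.59% of other dTAG13 cells, and in 5.99% and 5.40% with DMSO, and no cell type lacking keratins was at hand to give the share from free RNA. When all cells with such a UMI were left out, the low class made up 23.2% of dTAG13 cells and 6.18% of DMSO cells. The part of depth in the low class was not tested beyond the thinning.

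The spread was then followed gene by gene. Cells of both libraries were placed together in 10 bins by the summed UMIs of the other 45 genes, leaving out the gene in question. From the lowest to the highest bin the median gene rose 2.91-fold with DMSO and 5.16-fold with dTAG13. The rise was larger with dTAG13 for 43 of 46 genes, the exceptions being Gtse1, Anln and Gas2l3. In the lowest bin 39 genes were lower with dTAG13 than with DMSO, and 7 were higher: Psrc1, Gtse1, Ckap2, Ckap5, Anln, Cdc20 and Gas2l3. In the highest bin 38 genes were higher with dTAG13 and 8 lower. The bins held unlike cells at the bottom, since the mean sum of all 46 genes in the lowest bin was 17.3 UMIs with DMSO (618 cells) and 12.3 with dTAG13 (2352 cells). In the second bin it was 23.9 and 23.7, and in the highest 64.6 with DMSO (961 cells) and 67.9 with dTAG13 (1621 cells). The rise and the counts for the end bins therefore follow in part from the wider spread of the sum itself. No such count over all measured genes is given beside them.

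Hmgb2, the most abundant of the 46, had the largest gain in correlation, given below, and Top2a and Cenpf had the largest gains in the rise across the bins. Its mean in the lowest and the highest bin was 10.1 and 12.7 UMIs per cell with DMSO, and 3.59 and 12.4 with dTAG13. With DMSO it was therefore nearly flat across the cycle programme, and with dTAG13 it was not. Top2a went from 1.12 to 3.58 UMIs with DMSO and from 0.282 to 3.53 with dTAG13. Cenpf went from 0.507 to 2.42 UMIs with DMSO and from 0.151 to 2.68 with dTAG13. Both reached like levels at the top and differed at the bottom. As a description over cells, the Pearson correlation of a gene with the other 45 had a median of 0.14 over 16123 DMSO cells and 0.27 over 10815 dTAG13 cells, and was higher with dTAG13 for 46 of 46 genes. Hmgb2 had 0.11 with DMSO and 0.52 with dTAG13, and Ube2c 0.44 and 0.64. Of the genes that departed, Hmmr had 0.29 and 0.49, Ckap2 0.14 and 0.24, Psrc1 0.07 and 0.13, Gtse1 0.05 and 0.06 and Anp32e 0.04 and 0.14. With the S-phase list, Hmgb2 had 0.03 with DMSO and 0.29 with dTAG13 and Anp32e 0.08 and 0.16, the highest 2 of the 46 genes with dTAG13, and both were genes with a lower level there. All cells hold 3900 UMIs, and sparse counts keep such correlations low. The sum itself spread wider with dTAG13, so the higher correlations there are not a separate result.

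**Figure D3:**
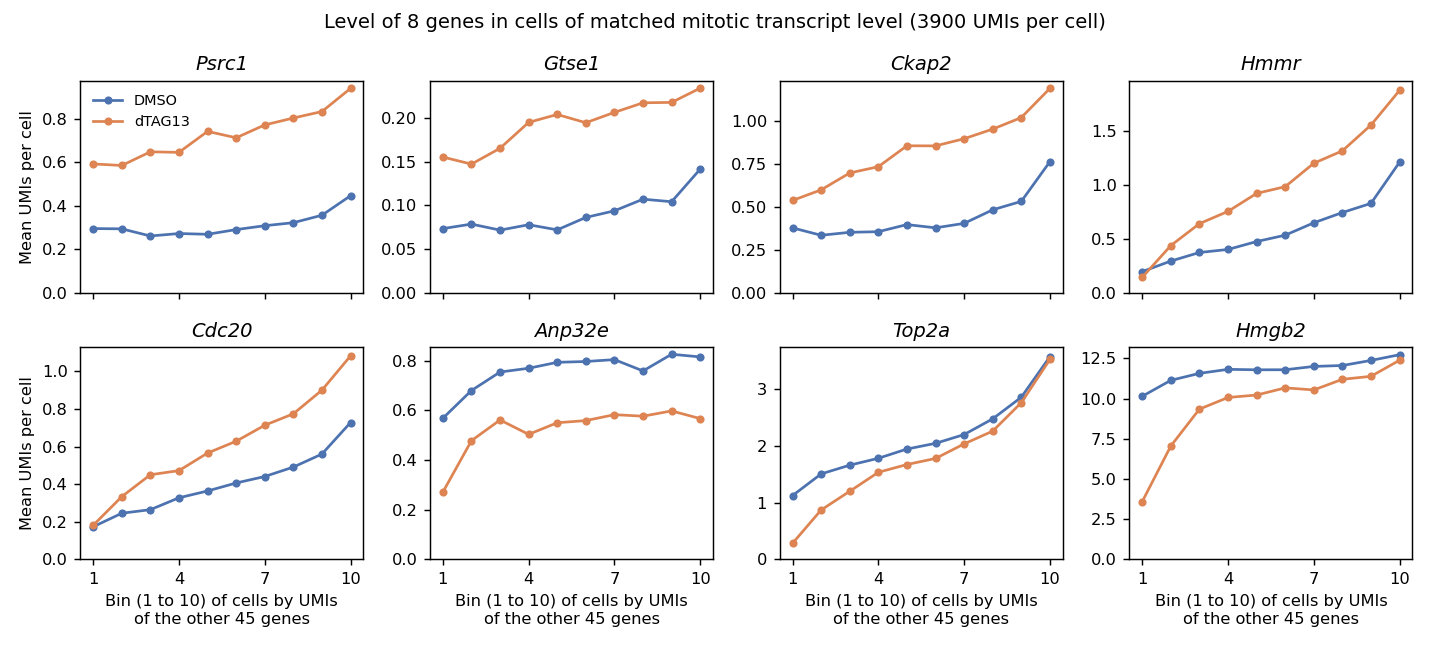
Mean UMIs per thinned cell (vertical axes) of Psrc1, Gtse1, Ckap2, Hmmr, Cdc20, Anp32e, Top2a and Hmgb2 across 10 bins of cells ordered by the UMIs of the other 45 genes (horizontal axes), for DMSO and dTAG13 (1 library each). The dTAG13 line lies above the DMSO line in all 10 bins for Psrc1, Gtse1, Ckap2 and Cdc20, crosses it at the bottom for Hmmr and lies below it in all 10 for Anp32e, Top2a and Hmgb2.

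The same bins allowed cells of nearly like mitotic level to be compared, except in the lowest and, less so, the highest bin, whose sums were unlike. Averaged over the bins with equal weight, 5 of 46 genes (10.9%) were at least 1.5-fold higher with dTAG13, beside 13.3% of all measured genes. None was at least 1.5-fold lower, beside 5.50%. The ratio was 2.33 for Psrc1, 2.13 for Gtse1, 1.90 for Ckap2, 1.72 for Hmmr and 1.53 for Cdc20. Anp32e had a ratio of 0.693. Psrc1, Gtse1, Ckap2, Hmmr and Anp32e were again the 5 genes at least 1.5-fold from the median of the 46. Psrc1, Gtse1, Ckap2, Cdc20 and Anln were higher with dTAG13 in 10 of 10 bins. Anp32e, Cdk1, Hmgb2, Dlgap5, Top2a and Cks2 were lower in 10 of 10. For Cenpf, Cdca2 and Ube2c the direction turned, with ratios of 0.997, 0.966 and 0.949 in matched cells, so no direction is given for them.

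Psrc1 was raised at the bottom of the programme as well as at the top. Its mean was 0.296 UMIs per cell with DMSO and 0.593 with dTAG13 in the lowest bin, and 0.447 and 0.940 in the highest. Gtse1 went from 0.074 to 0.141 UMIs with DMSO and from 0.155 to 0.234 with dTAG13. Ckap2 went from 0.377 to 0.761 with DMSO and from 0.537 to 1.19 with dTAG13. For these 3 genes the dTAG13 cells with the fewest mitotic transcripts stood above the DMSO cells of the same bin. Hmmr differed from them: in the lowest bin it stood at 0.198 UMIs with DMSO and 0.145 with dTAG13, and in the highest at 1.21 and 1.88. Cdc20 was nearly equal in the lowest bin, at 0.173 and 0.181 UMIs, and stood at 0.728 and 1.08 in the highest. Anp32e stood at 0.568 and 0.271 UMIs in the lowest bin and at 0.815 and 0.567 in the highest, lower with dTAG13 throughout.

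Because Gtse1 and Psrc1 are known p53-induced genes, the genes were also compared between cells of 1 library that differ in p53 target transcripts. The sum was taken over 30 p53 targets, such as Mdm2 and Cdkn1a, none of which is among the 46. With DMSO, 1006 cells above the 90th percentile (over 6 target UMIs) were compared with 6337 cells below the median (under 2). With dTAG13, 816 cells with over 16 target UMIs were compared with 4919 cells with under 9. The high and the low cells had like mitotic levels, with a median sum of the 46 genes of 36 and 37 UMIs with DMSO and of 37 and 37 with dTAG13. Their median depth before thinning was 5940.5 and 6314 UMIs with DMSO and 6533.5 and 7598 with dTAG13.

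Among DMSO cells, 3 of 46 genes (6.52%) were at least 1.5-fold higher in the cells with many p53 target UMIs, where 11.3% of all measured genes were. The 3 genes were Gtse1, Ckap2 and Psrc1. Psrc1 stood at 0.496 UMIs per cell in the high and 0.223 in the low cells, a ratio of 2.23 (2.01 to 2.47). Gtse1 stood at 0.152 and 0.0650, a ratio of 2.34 (1.93 to 2.82), and Ckap2 at 0.729 and 0.320, a ratio of 2.27 (2.09 to 2.47). The next gene was Hmmr, at 0.686 and 0.503 UMIs and a ratio of 1.36 (1.25 to 1.48). In DMSO cells the median log2 ratio of the 46 genes was 0.14, beside 0.07 over all measured genes. The counting interval lay above 1 for 23 of the 46 genes, Mki67 with 1.34 (1.22 to 1.46) and Cenpe with 1.32 (1.22 to 1.43) among them, and below 1 for 5. No such count over all measured genes is given beside it, so it is not read as a trait of the 46.

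Among dTAG13 cells, 3 of 46 genes (6.52%) were at least 1.5-fold higher in the high cells, where 12.2% of all measured genes were. These were Psrc1 at 1.005 and 0.622 UMIs with a ratio of 1.62 (1.49 to 1.75), Gtse1 at 0.267 and 0.167 with a ratio of 1.60 (1.37 to 1.86), and Gas2l3. Gas2l3 stood at 0.0674 and 0.0368 UMIs, a ratio of 1.83 (1.33 to 2.49), while its ratio with DMSO was 0.900 (0.626 to 1.26). Ckap2 stood at 0.999 and 0.733 UMIs, a ratio of 1.36 (1.26 to 1.47). On the lower side with dTAG13, Anp32e had a ratio of 0.682, Aurkb of 0.717 (0.512 to 0.982), Hmgb2 of 0.743 and Cdk1 of 0.775. With DMSO their ratios were 0.850, 0.871 (0.669 to 1.12), 0.9003 and 0.887, and the interval of Aurkb held 1. In the dTAG13 library the interval lay above 1 for 22 of the 46 genes and below 1 for 7, again without a count over all measured genes. The median log2 ratio of the 46 was 0.09 there, beside 0.07 over all measured genes. Whether the ratios differ between the libraries was not tested.

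**Figure D4:**
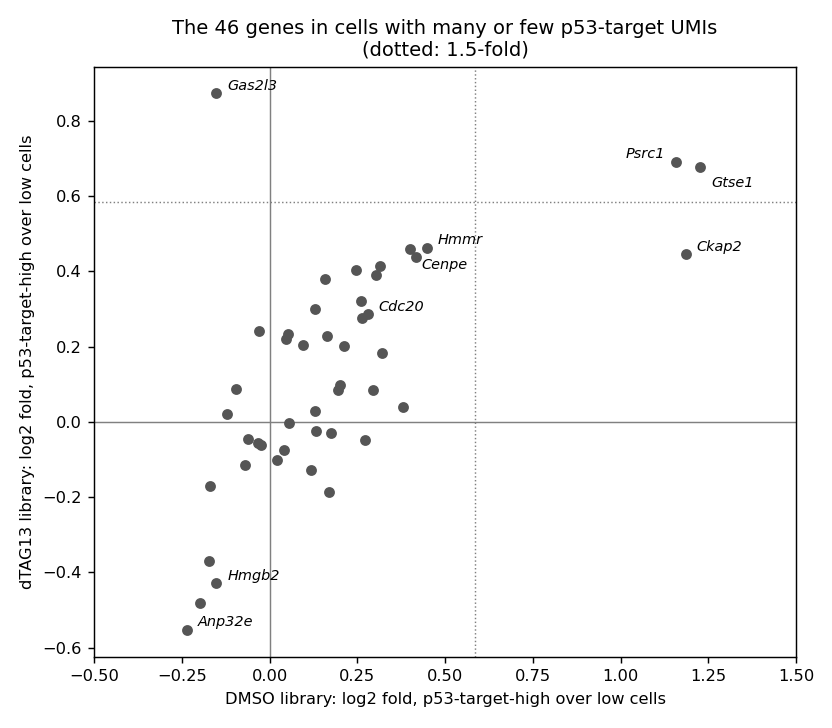
Log2 ratio of mean UMIs in cells with many over cells with few p53 target UMIs within the DMSO library (horizontal axis) and within the dTAG13 library (vertical axis), with 1 point for each of the 46 genes. Psrc1, Gtse1 and Ckap2 lie farthest to the right, past 1 on the DMSO axis, and Anp32e lies lowest.

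Cells of the libraries with like p53 target sums were then set side by side in 6 ranges from 0 to 12 target UMIs. These hold 16083 of 16123 DMSO cells but 8260 of 10815 dTAG13 cells, since dTAG13 cells with more target UMIs have too few DMSO cells to be set beside. In cells with 0 or 1 target UMI the ratio of dTAG13 to DMSO was 1.95 (1.49 to 2.51) for Psrc1, 2.04 (1.22 to 3.23) for Gtse1 and 1.66 (1.30 to 2.09) for Ckap2. In cells with 10 to 12 target UMIs it was 1.35 (1.10 to 1.66), 1.001 (0.706 to 1.46) and 0.906 (0.774 to 1.07). In that range the intervals of Gtse1 and Ckap2 held 1. Hmmr had 1.26 (1.02 to 1.56) in the first range and 1.33 (1.11 to 1.59) in the last. The range with the fewest target UMIs held 143 dTAG13 cells and the last one 175 DMSO cells, so these are small classes. Averaged over the 6 ranges the ratio was 1.49 for Psrc1, 1.29 for Gtse1, 1.23 for Ckap2, 1.32 for Hmmr and 1.37 for Cdc20. Anp32e had 0.763. Over the same cells without the split into ranges, the ratios were 2.22, 2.04, 1.88, 1.62 and 1.46 in the same order, and 0.675 for Anp32e. Of the 46 genes, 34 lay closer to 1 averaged over the ranges than in the whole libraries. Among them were Cenpe with 1.19, Ckap2l with 1.25 and Cdk1 with 0.895, beside 1.41, 1.41 and 0.781 in the whole libraries. That count takes no account of the size of the change and sets thinned cells against whole libraries. The part of p53 in these ratios was not tested.

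**Figure D5:**
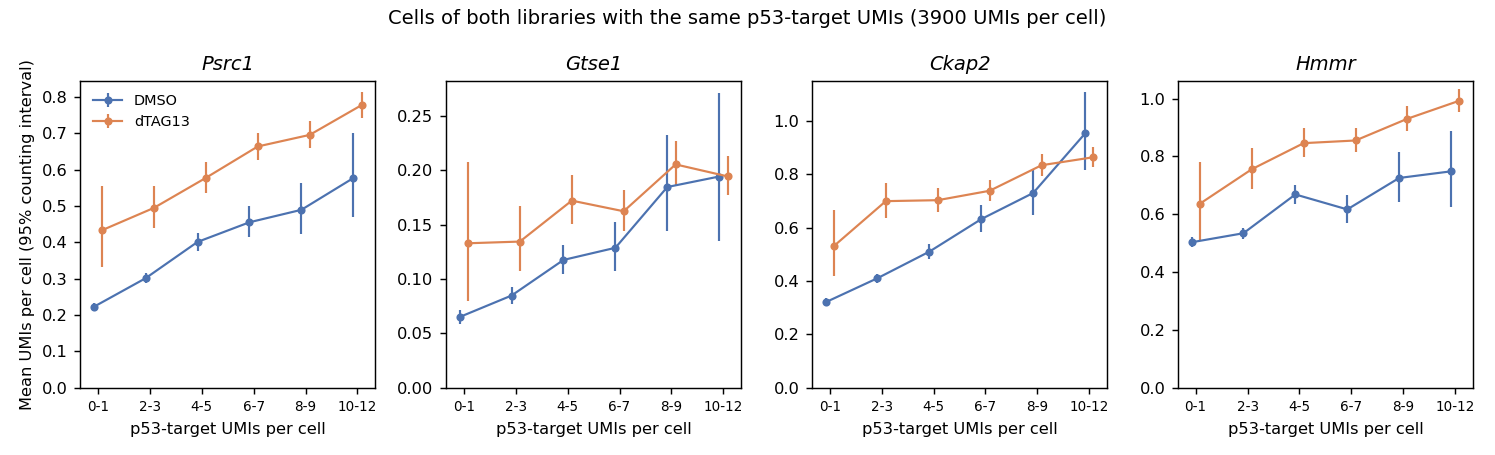
Mean UMIs per thinned cell (vertical axes) of Psrc1, Gtse1, Ckap2 and Hmmr in 6 ranges of summed p53 target UMIs (horizontal axes), with 95% counting intervals, for DMSO and dTAG13. Psrc1, Gtse1 and Ckap2 climb with the target sum in the DMSO library, and the DMSO and dTAG13 points of Gtse1 and Ckap2 meet in the last range.

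Other genes of the cell cycle gave the setting. Of 81 measured mitotic genes outside the 46, 50 had a ratio above 1 and the median log2 ratio was 0.10, near the median of all measured genes. At least 1.5-fold higher were 3 (3.70%) and lower 2 (2.47%), both below the 14.2% and 5.40% of all measured genes. Higher were Kif18b, a plus-end kinesin, at 7.82 and 18.7 CPM (2.39), Fam83d at 11.8 and 21.1 CPM (1.78), and Kif15 at 93.5 and 162 CPM (1.74). Lower were Spc24, a partner of Ndc80 in its complex, at 205 and 123 CPM (0.599), and Pkmyt1, an inhibitory kinase of Cdk1, at 10.5 and 6.75 CPM (0.646). Of 44 measured S-phase genes 5 had a ratio above 1, 9 (20.5%) were at least 1.5-fold lower, beside 5.40% of all measured genes, and the median log2 ratio was -0.29. A further list held 16 measured genes linked to G2 arrest, and not all of them hold cells in G2. Of these 16, 9 (56.3%) were at least 1.5-fold higher, beside 14.2% of all measured genes. None was at least 1.5-fold lower, and the median log2 ratio was 0.74. The higher genes included Cdkn1a, which encodes p21, at 66.9 and 232 CPM, Ccng1 at 72.3 and 232 CPM, and Sfn, the 14-3-3 protein that keeps Cdk1 out of the nucleus, at 171 and 299.6 CPM. Btg2 stood at 15.0 and 120.3 CPM, Plk2 at 20.3 and 141 CPM, Plk3 at 12.07 and 19.2 CPM, Ppm1d at 17.9 and 33.2 CPM and Gadd45g at 9.10 and 27.8 CPM. Cdkn1a, Ccng1, Btg2, Plk2 and Plk3 are also among the p53 targets summed above. The DNA damage kinases were closer to level, with Atm at 26.6 and 27.9 CPM, Atr at 15.1 and 19.4 CPM and Chek2 at 25.04 and 29.7 CPM. Chek1 and Wee1, kinases that restrain Cdk1, stood at 55.2 and 46.7 CPM and at 25.5 and 21.7 CPM. Gadd45a stood at 25.1 and 25.5 CPM and Gadd45b at 41.0 and 59.8 CPM.

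Some of these values are uncertain as values of a single gene. GENCODE M21, a release for mm10, names pseudogenes of Ccnb1, Ccnb2 and Tubb4b, and the sources used here do not describe how reads from near-identical copies were counted. In that release 12 of the 46 genes overlap another gene on the same strand, most of them small RNAs, with Gm43375 overlapping Anp32e and Gm48646 overlapping Anln. Psrc1, Gtse1, Ckap2 and Hmmr have no such overlap.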

How the data were processed

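Single-cell libraries of embryoid bodies treated with DMSO or dTAG13 were made with the 10x Chromium 3′ kit, per the labels' protocols. The deposited matrices hold raw UMI counts per gene and barcode, which the authors made with Cell Ranger (version 8.0.1), per the file headers. Per the submitters' processing notes, mm10, R 4.3.2 and Seurat 5.0.1 were also used, in roles the notes do not give. The sources used here do not give the annotation or the barcode filter. The 33696 gene identifiers were joined by symbol, and 26 symbols with more than 1 identifier were summed.

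Kept cells had 500 genes or more and no more than 10% mitochondrial UMIs, and no doublets were removed. UMIs were summed per library (117189816 and 91808969) and scaled to CPM. CPM has exact Poisson intervals, ratios exact conditional binomial intervals and shares exact (Clopper-Pearson) intervals, at 95%, for counting error only, since UMIs of 1 library do not measure the spread between cultures. A fold of 1.5 stands in for a call, read against all genes that reached 5 CPM in either library. For per-cell values, cells were thinned to 3900 UMIs (seed 1). Bins with under 20 cells of a library were left out. Calculations used Python 3.11.15, numpy 2.4.6, scipy 1.17.1 and pandas 2.3.3, and were tested on simulated data.

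The 46 genes and all lists, and the 1.5-fold rule, were chosen with earlier results of these data known. Described in full are genes that depart from the rest and the 3 most and 3 least abundant. Of the other mitotic genes, those with 10 CPM in either library and a 1.5-fold ratio are named, up to 8. Of the genes linked to G2 arrest, those with 10 CPM in either library are named. Genes named as most alike come from the 8 most correlated with the summed 46 in each library. Some results on single genes outside the 46 are not reported here. Alternatives were another scaling, other cell filters and depths, other matching, and leaving out cells with keratin UMIs.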

Additional observations from a re-analysis of the deposited data

How the results depend on the processing

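The library comparison was recomputed with a median-of-ratios scaling, stricter gene and mitochondrial limits, means of thinned cells, without keratin cells, without the deepest 10% of cells and with a 20 CPM minimum. Under these, 4 or 5 genes were at least 1.5-fold higher, 1 was lower, and 5 departed from the rest. The scaling lowered all log2 ratios by 0.07 and gave a median of 0.011 for the 46 genes. The gene that left the higher count was Cdc20, which ranged from 1.44 to 1.55. Psrc1 ranged from 2.31 to 2.43, Gtse1 from 2.06 to 2.17, Ckap2 from 1.84 to 1.98, Hmmr from 1.61 to 1.74 and Anp32e from 0.620 to 0.665. In matched cells 4 or 5 genes were higher and none lower, with 4 at 2000 UMIs, with added matching on S-phase genes and, chosen after seeing the data, matching without Hmgb2. Over these matchings Psrc1 ranged from 2.30 to 2.36, Gtse1 from 2.11 to 2.32 and Ckap2 from 1.85 to 1.94. Hmmr ranged from 1.60 to 1.73, Cdc20 from 1.44 to 1.54 and Anp32e from 0.676 to 0.729. The low share with dTAG13 was 28.4% at the 10th percentile of DMSO (12.001% with DMSO). It was 18.5% without Hmgb2 (5.15% with DMSO) and 23.2% without cells with any keratin UMI (6.18% with DMSO), both chosen after seeing the data. The cause was not tested. No paired analysis was possible because each group is 1 library and the labels give no replicate numbers. Each group is 1 library, so a difference between cultures, captures or sequencing runs cannot be told apart from the treatment, and doublets remain among the cells.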

Other observations

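Genes outside the 46 that followed their sum most closely over thinned cells were taken from 4283 genes with at least 20 CPM in both libraries. Arl6ip1, a membrane-shaping protein of the endoplasmic reticulum, had a Pearson correlation of 0.40 over DMSO cells and 0.52 over dTAG13 cells. Prc1, which bundles the central spindle, had 0.31 and 0.51, and Plk1, the mitotic kinase, 0.25 and 0.37. Tuba1c, an alpha tubulin, had 0.28 and 0.39 over the same cells. These 4 genes were among the 8 closest in both libraries. Mtf2 (0.20 and 0.21), Malat1 (0.18 and 0.04) and Calm2 (0.18 and 0.29) were among the 8 closest with DMSO. Tuba1b (0.08 and 0.37), Incenp (0.18 and 0.31) and Tubb5 (0.08 and 0.30) were among the 8 closest with dTAG13. These correlations share the fixed depth of 3900 UMIs per cell, are given as a description, and have no test.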
